A study of Canis lupus familiaris with 20 samples.

Results

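The 100 genes described here were the steadiest of a class of abundant transcripts in the RNA of exosomes from dog osteosarcoma cell lines. They were chosen from the deposited counts in 3 steps, out of 24579 gene identifiers. First, 2601 genes reached 50 CPM (counts scaled to a common library total) in all 8 cell libraries. Of these, 705 had a median ratio of exosome to cell CPM, over 4 lines, between 0.5 and 1, and they are called the eligible genes below. The 100 eligible genes with the lowest standard deviation (SD) of log2(CPM + 1) over the 12 exosome libraries are the members, and the other 605 serve for comparison. The exosome values chose the members, so their steadiness in exosomes is a description and no test is made of it. Differences between lines in the cells did not enter the ranking and were tested, although cell levels entered the floor and the ratio.

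Cells of 4 dog osteosarcoma lines were sequenced in 2 libraries each, namely OSCA-8, OSCA-78, OS-2 and OS-1. Exosomes of the same lines and of OSCA-32, whose cells were not analysed here, gave 12 libraries, 4 of them from OS-1 and a pair from every other line. The question of the study was which genes in exosomes could mark this bone tumour of dogs. Every group came from a cultured line without a stated treatment, and exosomes were enriched with the ExoQuick reagent before their RNA was prepared. The labels leave unsaid whether libraries of a line stem from separate cultures, and p-values then reflect only how far these libraries scatter, which may be technical.

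Exosomes are small membrane vesicles that form inside endosomes and leave the cell when these fuse with the plasma membrane. They carry protein, lipid and RNA of the cell of origin, and much of that RNA is fragments of transcripts. A transcript that keeps a steady level from sample to sample is of use as an internal reference, since the amount of vesicle RNA recovered varies. Such a reference is always steady with respect to a scale, either the whole library or a set of other genes. In bulk vesicle RNA, more vesicles with a transcript and more copies per vesicle cannot be told apart.

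Cell libraries held 7728553 to 13301840 counts and exosome libraries 259078 to 481487. A set of 7 genes, each above 1% of at least 1 exosome library, took 55.6% and 60.9% of the counts in the 2 OS-2 exosome libraries and 0.750% to 27.4% in the other 10. These 7 genes took 0.0394% to 0.126% of the cell libraries. Genes are given by Ensembl identifier because 0 of the 24579 identifiers matched the gene table at hand, so neither the roles of the members nor markers of the cell type could be looked up.

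In exosomes the members stood at a moderate and even level. The median member had 84.9, 87.3, 92.0 and 82.8 CPM in OS-1 replicates 1 to 4, and 85.4 and 90.1 CPM in OSCA-32 replicates 1 and 2. It had 84.0 and 83.4 CPM in OSCA-78 replicates 2 and 3, and 77.96 and 83.5 CPM in OSCA-8 replicates 1 and 2. The 2 OS-2 libraries were the lowest, with 73.7 and 62.8 CPM. The other eligible genes followed another course. Their median ran from 63.9 to 97.6 CPM in the 10 libraries of the other lines and was 37.4 and 30.9 CPM in the OS-2 libraries. The plot of levels by library shows the members nearly level in exosomes, while the other eligible genes drop in OS-2.

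**Figure D1:**
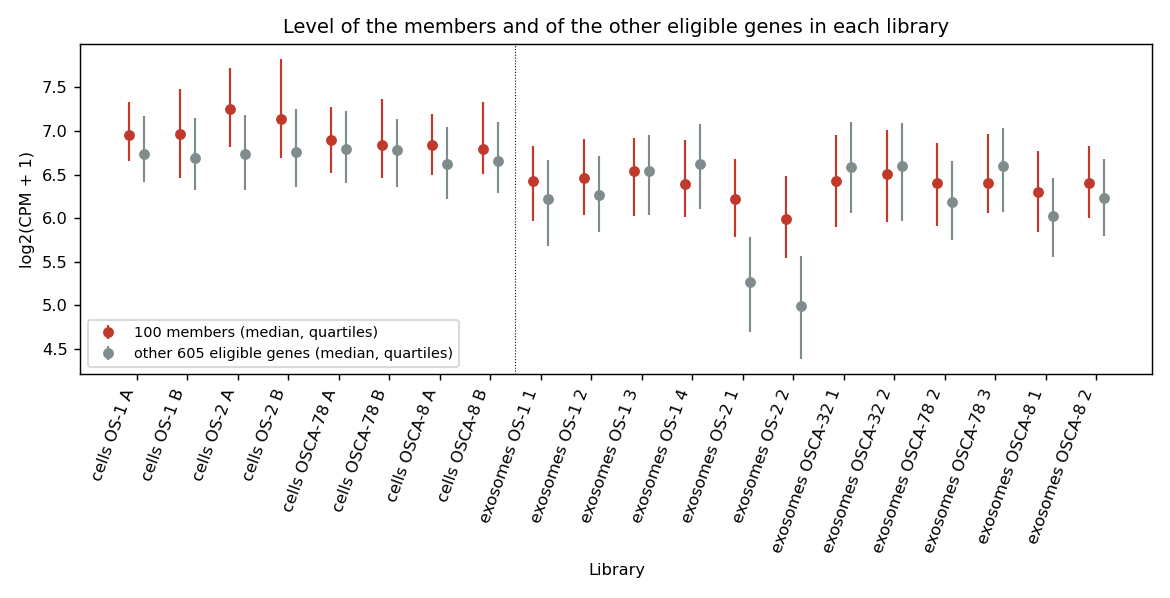
Median (points) and quartiles (bars) of log2(CPM + 1) over the 100 members (red) and the other 605 eligible genes (grey) in each of 8 cell and 12 exosome libraries. The member medians of the exosome libraries stay between 62.8 and 92.0 CPM, whereas the median of the other genes falls to 37.4 and 30.9 CPM in OS-2.

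By construction the members had the smallest SDs, from 0.237 to 0.461 with a median of 0.388, against 0.462 to 1.88 with a median of 0.707 for the other eligible genes. Level alone did not set the list. Mean exosome CPM was 42.3 to 325 over the members, with a median of 80.1, and the median of the others was 78.02. The 176 eligible genes with the highest exosome level held 34 members, and the 176 with the lowest held 18.

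Much of the spread that remained was of the size that counting gives at this depth. A member had between 8 and 233 counts in an exosome library, and the median count per library was 22.0 to 44.0. Counting error alone would give a median SD of 0.259 at the members' levels. The observed SD was 1.52 times the counting SD in the median member and 2.72 times in the median of the others. In variance, counting amounted to 43.5% for the median member and 13.5% for the others, and the choice of low SDs favours a high share in the members. There were 49 members below 1.5 times the counting SD, and 1 lay below the counting SD itself. No molecular identifiers are described, so this reckoning covers counting error only.

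**Figure D2:**
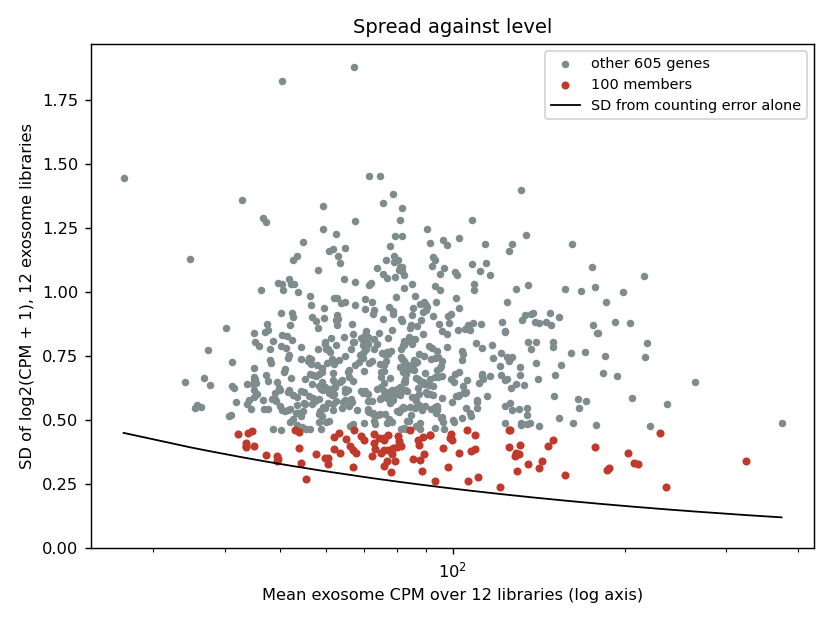
SD of log2(CPM + 1) over 12 exosome libraries against mean exosome CPM (log axis) for the 100 members (red) and the other 605 eligible genes (grey), with the SD that counting error alone would give (line). Members lie below 0.462 at every level, between 0.867 and 2.93 times the counting line.

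Spread in exosomes was also taken within and between lines. In the members the median SD was 0.317 for single libraries about the mean of their line and 0.307 for the means of the 5 lines. A mean of several libraries scatters less than a single library, so the closeness of these values does not show differences of like size. In the other eligible genes these values were 0.465 and 0.679. The 4 exosome libraries of OS-1 allowed a view within 1 line. The median difference of replicates 3 and 4 from replicates 1 and 2 was -0.01 (log2) in the members and 0.35 in the other eligible genes. These libraries also ranked the genes, so the choice of low SDs favours small values in the members. The 7 dominant genes took 18.4% and 13.7% of replicates 1 and 2 and 1.59% and 0.750% of replicates 3 and 4. The part of these genes in the difference was not tested.

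ENSCAFG00000016859 had the lowest SD, 0.237, where counting alone would give 0.151. In OS-1 exosomes it stood at 297, 262, 207 and 234 CPM, and in OS-2 exosomes at 226 and 183 CPM. The remaining exosome libraries gave 217 and 188 CPM in OSCA-32, 305 and 245 CPM in OSCA-78, and 207 and 260.0 CPM in OSCA-8. The OSCA-78 pair lay above the OSCA-32 and OS-2 pairs, and all other pairs of lines overlapped. Its cells were less even. They gave 485 and 196 CPM in OS-1, 303 and 322 CPM in OS-2, 765 and 360.0 CPM in OSCA-78, and 424 and 381 CPM in OSCA-8. Replicates of OS-1 and of OSCA-78 cells differed by more than 2-fold, and no line lay above or below all others.

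ENSCAFG00000014267 followed with an SD of 0.239 in exosomes, where counting would give 0.211. Its exosome levels were 96.5, 129.5, 128 and 136 CPM in OS-1, 139 and 123 CPM in OS-2, and 112 and 111 CPM in OSCA-32. They were 152 and 85.8 CPM in OSCA-78 and 133 and 104 CPM in OSCA-8. No line lay above or below all others, and the OSCA-78 pair held both the highest and the lowest library. In cells, the OS-2 values of 244 and 259 CPM lay above all others, which were 109 and 138 CPM in OSCA-8, 154 and 179 CPM in OSCA-78, and 141 and 129 CPM in OS-1.

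The most abundant member in exosomes, ENSCAFG00000032525, averaged 325 CPM there. It ranged from 218 CPM in OSCA-78 replicate 3 to 484 CPM in OS-2 replicate 1. In cells it stood at 1615 and 1400.3 CPM in OS-2 and at 222 to 728 CPM in the 6 other libraries. At the lower end, ENSCAFG00000010863 averaged 42.3 CPM in exosomes, from 24.4 CPM in OSCA-32 replicate 1 to 68.4 CPM in OSCA-78 replicate 2. Its cells were highest in OSCA-78, with 133 and 156 CPM, against 54.0 to 98.2 CPM in the other 6 libraries. The member with the highest and the one with the lowest level thus each had a line whose cells did not overlap with the rest. The OS-2 difference of the former was called (edgeR quasi-likelihood test, adjusted p = 0.0384). The OSCA-78 difference of the latter was not (same test, adjusted p = 0.129). Over all tested genes, both OS-2 cell libraries lay above the other 6 in 14.4% and below in 17.9%, so such gaps are common.

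At the limit of the list the values were continuous. The last 2 members, ENSCAFG00000012307 and ENSCAFG00000000603, had SDs of 0.460 and 0.461. The first 2 genes left out, ENSCAFG00000013686 and ENSCAFG00000017453, had SDs of 0.462 and 0.463. ENSCAFG00000012307 stood at 60.2 and 68.4 CPM in OS-2 exosomes and at 112 to 175 CPM in the other 10 libraries. ENSCAFG00000017453 stood at 35.3 and 30.9 CPM in OS-2 exosomes and at 41.8 to 84.0 CPM in the other 10. In both, the OS-2 libraries were the lowest. In ENSCAFG00000000603 and ENSCAFG00000013686 they overlapped with the others, at 41.5 and 33.1 CPM against 31.7 to 96.5 CPM and at 56.1 and 24.3 CPM against 35.8 to 81.6 CPM.

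OS-2 exosomes were where members and other eligible genes parted. The members together took 0.888% of the counts in OS-2 replicate 1 (Clopper-Pearson 95% interval 0.861% to 0.915%) and 0.771% in replicate 2 (0.746% to 0.797%). The intervals cover counting error only, not scatter between libraries, and those of the OS-2 replicates do not overlap each other. In the other 10 exosome libraries the members took 0.927% to 1.03%. The other eligible genes took 2.74% and 2.39% in OS-2 against 4.46% to 6.52% elsewhere. Both OS-2 libraries lay below all other 10 for 23 members (23.0%) and for 355 of the other 605 genes (58.7%). The lowest library was an OS-2 library for 43 members and for 475 of the others (78.5%). These counts come from the libraries that ranked the genes and are given as a description of what a low SD amounted to.

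The members' share was also taken of smaller totals. As a share of the counts of the 705 eligible genes, which no scaling of a library can move, the members took 24.4% in each of the 2 OS-2 exosome libraries. They took 13.3% to 17.2% in the 10 others. As a share of the counts outside the 7 dominant genes, they took 2.0% and 1.97% in OS-2 and 0.999% to 1.28% in the others. The rule fixes this direction, because it picks genes that are level in CPM out of a class whose median falls in OS-2 exosomes, and nothing further is read from it.

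**Figure D3:**
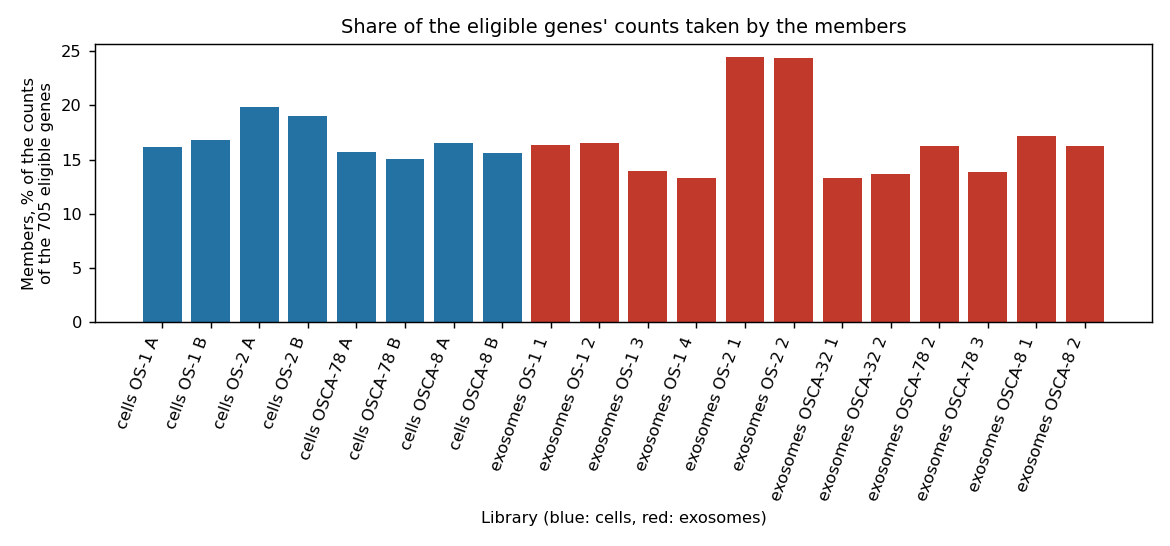
Counts of the 100 members as a percentage of the counts of the 705 eligible genes, by library (blue, cells; red, exosomes). OS-2 exosomes stand at 24.4% against 13.3% to 17.2% in other exosomes, and OS-2 cells at 19.9% and 19.1% against 15.1% to 16.8% in other cells.

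The members were then followed in the cells, whose differences between lines had no part in the ranking, although the floor and the ratio window used their levels. The members took 1.91% and 1.97% of the counts of OS-2 cell libraries. They took 1.37% and 1.29% in OSCA-8, 1.39% and 1.30% in OSCA-78, and 1.42% and 1.46% in OS-1, so OS-2 did not overlap with the other lines. As a share of the eligible genes' counts these values were 19.9% and 19.1% in OS-2 and 15.1% to 16.8% in the other 6 libraries. The other eligible genes, summed, showed a smaller gap, with 7.71% and 8.37% of the counts in OS-2 cells and 6.90% to 7.46% in the others.

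Gene by gene, 18 of the 100 members were higher in OS-2 cells than in the mean of the other lines, where 6.92% of all 14148 tested genes were (edgeR quasi-likelihood test, Benjamini-Hochberg adjusted p under 0.05). Among the other eligible genes 42 of 605 (6.94%) were higher. The number of members lower was 0, where 7.12% of all genes and 1.49% of the other eligible genes were lower. The floor of 50 CPM limits how low an eligible gene can be in OS-2 cells. The other eligible genes are thus the closer base for this direction, and 0 of 100 lies near their 1.49%. At an unadjusted p under 0.05 the number of members lower was also 0, and DESeq2 and limma called 0 too, without a share over all genes given here. The median fitted log2 fold change was 0.28 over the members, 0.05 over the other eligible genes and -0.06 over all genes. A value above 0 was fitted for 76 members, without a share over all genes given here. In mean log2(CPM + 1), OS-2 cells were higher for 72 members and for 309 of the other 605 genes. The 18 called members had fold changes from 0.77 to 2.67 on the log2 scale, and in all 18 both OS-2 libraries lay above the other 6. The ranking favoured genes that fell less in OS-2 exosomes. Over the eligible genes, OS-2 differences in cells and in exosomes had a Spearman's rho of 0.32, so the 18 are not independent of the choice. How much the choice adds to them was not tested.

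Shares over all genes are not given here for the fits without single libraries. Without those shares, a general loss of calls cannot be told from a loss in the members. The count of 18 moved with single libraries. It was 5 without OS-2 replicate A, 3 without OS-2 replicate B, 8 without OSCA-78 replicate A and 9 without OSCA-78 replicate B. Without reference to a test, both OS-2 cell libraries lay above the other 6 for 27 members, where 14.4% of all tested genes and 16.2% of the other eligible genes did. Both lay below for 2 members, against 17.9% and 13.1%.

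Of the called members, ENSCAFG00000009564 had the largest fold change. Its cells stood at 380.2 and 923 CPM in OS-2, 94.0 and 140.2 CPM in OSCA-8, 87.7 and 182 CPM in OSCA-78, and 83.6 and 64.7 CPM in OS-1. OS-2 was apart from all other cells, though its replicates differed widely. On the log2 scale OS-2 was 2.67 higher (SE 0.40, edgeR adjusted p = 0.00866), and 1.89 with an adjusted p of 0.0937 without OS-2 replicate B. Its OS-2 exosomes stood at 47.8 and 70.6 CPM and the other exosomes at 66.5 to 141 CPM, so OS-2 was at the lower end in CPM. With TMM scaling the fitted OS-2 exosome difference was 1.01 on the log2 scale, so the direction depends on the scaling.

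ENSCAFG00000001902 was the second. Its cells stood at 379 and 426 CPM in OS-2, 53.4 and 63.2 CPM in OSCA-8, 79.9 and 89.9 CPM in OSCA-78, and 68.3 and 84.2 CPM in OS-1. On the log2 scale OS-2 was 2.52 higher (SE 0.22, edgeR adjusted p = 0.00297), with adjusted p values from 0.00407 to 0.0294 when single cell libraries were left out. Exosomes of OS-2 had 81.0 and 108 CPM of it. Those of OSCA-32 had 141 and 128 CPM, those of OSCA-8 56.2 and 82.1 CPM, and those of OS-1 61.8 to 90.8 CPM, with 52.9 CPM in OSCA-78 replicate 2 as the lowest value. OS-2 thus stood far above the other cells and within the range of the other exosomes in CPM. With TMM scaling, 17 of the 18 members called in OS-2 cells were also called higher in OS-2 exosomes, where 85 of all 100 were.

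**Figure D4:**
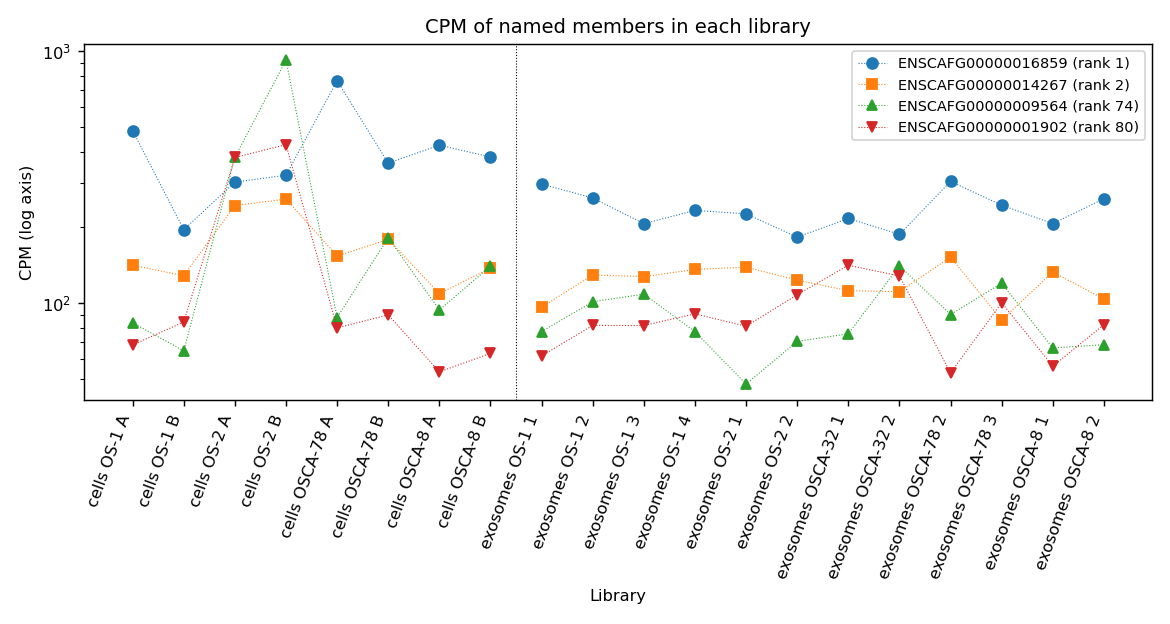
CPM (log axis) in each of 20 libraries of the 2 members with the lowest exosome SD (ranks 1 and 2) and the 2 called members with the largest fold change in OS-2 cells (ranks 74 and 80). The rank 74 and 80 genes stand at 379 to 923 CPM in OS-2 cells and at 47.8 to 108 CPM in OS-2 exosomes.

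The cells of the other lines gave no such calls. edgeR called 0 members in OS-1, OSCA-78 and OSCA-8 cells, with 7, 9 and 11 at an unadjusted p under 0.05. DESeq2 called 0, 4 and 3 and limma called 0 in each of these lines. Over all genes edgeR called 0 in OS-1 and OSCA-8 and 0.184% higher and 0.0565% lower in OSCA-78. The test over all 4 lines at once called 5 members, where 3.39% of all genes and 1.16% of the other eligible genes were called, and all 5 were among the 18 of OS-2. DESeq2 called 20 members in this test and limma 3. Shares over all genes are not given here for DESeq2, limma or an unadjusted p, so nothing about the members is read from such counts. With the replicate letter as a block edgeR called 8 members over the lines, where 9.06% of all genes were called. Over the lines the members thus lay above the share of all genes without the block and below it with the block. As higher in OS-2 the block fit called 21 members, where 10.4% of all genes were, so this count stayed above the share. The count of 5 was 3 without OS-1 replicate B and 1 without either OSCA-8 replicate. Without OS-2 replicate A or B or OSCA-78 replicate A or B it was 0, with 14, 12, 17 and 18 members at an unadjusted p under 0.05. Without the OS-2 line edgeR called 0 members, with 4 at an unadjusted p under 0.05.

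In cells the members were no more even than the rest of the eligible genes by their medians. The SD of log2(CPM + 1) over the 8 cell libraries had a median of 0.378 in the members and 0.356 in the other eligible genes. Members differed more than 2-fold between their highest and lowest cell library in 62 cases (62.0%), and the others in 53.2%. The SD was larger in cells than in exosomes for 55 of 100 members and for 53 of the other 605 genes (8.76%), a contrast that the choice of low exosome SDs largely fixes. The highest mean over cell lines was in OS-2 for 52 members, in OS-1 for 23, in OSCA-78 for 15 and in OSCA-8 for 10. In the other eligible genes OS-2 was highest in 33.2% and OSCA-78 in 30.7%. Between cell replicates A and B the median absolute log2 difference was 0.34 in the members and 0.32 in the others for OSCA-8 and 0.33 against 0.26 for OSCA-78. It was 0.25 against 0.24 for OS-2 and 0.37 against 0.35 for OS-1. The members' value was the higher one in each of the 4 lines.

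Across genes, the OS-2 difference in cells and that in exosomes went together weakly. Over the 705 eligible genes, Spearman's rho between the difference of OS-2 cells from other cells and that of OS-2 exosomes from other exosomes was 0.32, on the log2(CPM + 1) scale. Over the members it was 0.30. The same values were 0.44 and 0.48 in OSCA-78, 0.42 and 0.36 in OSCA-8, and 0.14 and 0.03 in OS-1. Genes share libraries and are not independent, so no p is given. When the eligible genes were ordered by their OS-2 cell difference and divided into 5 groups of 141, the lowest group held 6 members (4.26%) and the highest 31 (22.0%). The 3 groups between held 16, 25 and 22. Median OS-2 exosome differences of the 5 groups, from lowest to highest, were -1.40, -1.43, -1.18, -1.02 and -0.63. The cell differences of the 4 lines share libraries, and for OSCA-78 the share of members ran the other way. Its lowest group held 38 members (27.0%) and its highest 7 (4.96%). The median exosome differences of these groups, 0.03 and 0.48, rose with the cell difference as in OS-2. In OS-1 and OSCA-8 the groups held between 13 and 26 and between 15 and 24 members.

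Within the list, OS-2 cells were higher for 72 members and lower for 28. Of the 72, OS-2 exosomes were higher in CPM for 23, and of the 28 for 2. In the other eligible genes OS-2 exosomes were higher for 34 of 309 and for 13 of 296. The median OS-2 exosome difference was -0.03 for the 18 called members and -0.33 for the other 82. The rule bounds the exosome differences of members, so these values are a description and nothing is read from them.

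**Figure D5:**
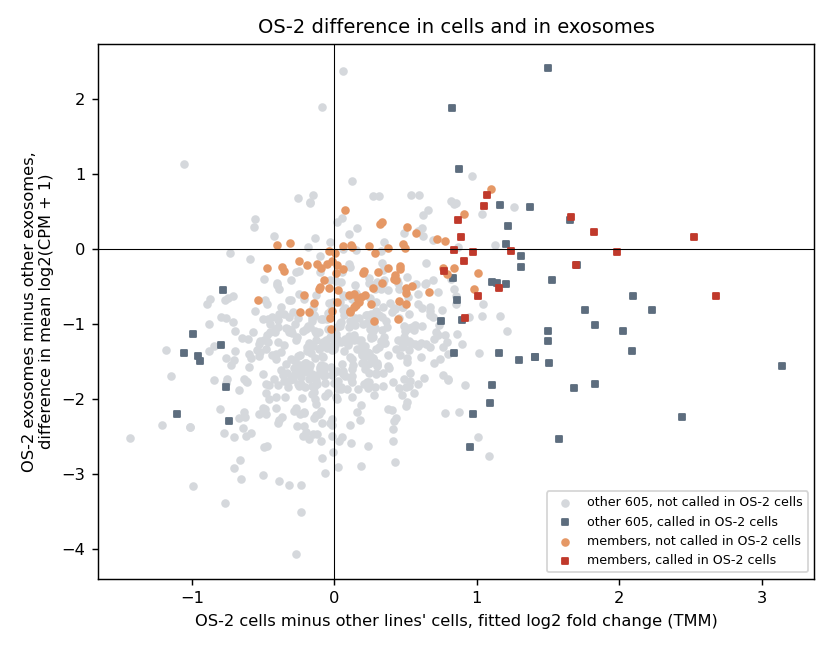
Each of the 705 eligible genes by its fitted log2 fold change in OS-2 cells against other cells (TMM scaling) and its OS-2 exosome difference in mean log2(CPM + 1). Members (orange circles, red squares where called in OS-2 cells) centre on an exosome difference of -0.29, and the other genes (light grey, dark squares where called) on -1.28.

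Chosen genes were also looked up in libraries that had no part in their choice. The rule was applied 5 times, each time without the exosomes of 1 line, and the 100 genes then chosen were looked up in the line left out. The reference was the mean of the libraries that chose them. That mean holds OS-2 when another line is left out, and OS-2 lowers it more for genes not chosen. A gap between chosen genes and the rest is thus partly fixed by the choice. For OSCA-32, 97 of 100 chosen genes lay within 1 log2 unit of their mean in the other lines, against 80.2% of the eligible genes not chosen. The median absolute difference was 0.35 and 0.59. For OS-1 it was 0.20 and 0.36, for OSCA-78 0.29 and 0.34, and for OSCA-8 0.28 and 0.29, with 97 to 99 chosen genes within 1 unit. The genes not chosen were within 1 unit nearly as often in these lines, at 98.2% in OS-1, 97.1% in OSCA-78 and 96.0% in OSCA-8. For OS-2 the median absolute difference was 1.18 for the chosen genes and 1.15 for the rest. Within 1 unit lay 43 of 100 and 42.6%. Both sets lay lower in OS-2, with median differences of -1.18 and -1.14. In the fit with total counts the median over all genes was -1.80. On the CPM scale of the rule, the chosen genes thus moved in OS-2 as much as the rest. Their steadiness did not carry over to OS-2 on this scale. With a shift of this size in both sets, the look-up cannot tell whether it would on another scale. When OS-2 had no say, 35 of the 100 members were chosen again. The number chosen again was 66 without OS-1, 77 without OSCA-78, 79 without OSCA-8 and 87 without OSCA-32.

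The list rests on scaling by the library total. With TMM, which scales libraries so that most genes are level between them, 1 of the 100 members was chosen again when all steps were repeated. When only the SD was recomputed over the same 705 genes it was 3. When the 7 dominant genes were left out of the totals it was 13. On the TMM scale the median SD was 0.588 in the members and 0.50 in the other eligible genes, so the members were the more variable ones.

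On that scale all 100 members were fitted higher in OS-2 exosomes than in the mean of the other lines, with log2 fold changes from 0.52 to 2.43. edgeR called 85 higher and 0 lower, where 13.2% and 5.79% of all 15083 genes were and 16.4% and 1.49% of the other eligible genes, and 58 over the 5 lines at once, where 15.2% of all genes and 15.7% of the other eligible genes were. The rule used these libraries, so nothing is read from the counts. With total counts the direction turned, and 2 members were higher (4.07% of all genes) and 14 lower (67.9%). The median over all genes was -0.20 on the log2 scale with TMM and -1.80 with total counts. The members' median lay 1.53 and 1.5 above it, and that of the other eligible genes 0.52 and 0.50 above it. Without OS-2 exosome replicate 1 or 2, 53 members were called higher in each case, and 25 and 29 over the lines.

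The ratio of exosome to cell was fixed by the rule only as a median of 4 lines, from 0.507 to 0.998 in the members. By line, the median ratio over members was 0.691 in OS-1, 0.703 in OSCA-78, 0.690 in OSCA-8 and 0.489 in OS-2. The corresponding values of the other eligible genes were 0.781, 0.747, 0.678 and 0.324. OS-2 was the line with the lowest ratio for 75 members and for 88.4% of the others. The ratio stayed between 0.5 and 1 in each of the 4 lines for 18 members and for 34 of the other 605 genes. At the extremes in OS-2, ENSCAFG00000009564 had a ratio of 0.0922, the lowest of the members, and the highest was 0.932. In the fit of exosomes against cells over 4 lines, 99 members were called lower and 0 higher, where 34.4% and 43.9% of all 16211 genes were. Among the other eligible genes 99.3% were lower. The window of the rule lies below 1, so nothing is read from these counts, and with RLE scaling 65 members were lower.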

How the data were processed

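The authors deposited unnormalised counts, whole numbers for each gene and library whose totals differ between libraries. Per the submitters' processing notes, kallisto 0.43.0, Trimmomatic 0.33.0 and FastQC 0.11.5 were among the tools, and GRCm38.p5 and CanFam3.1 among the genome builds, with no role stated. The table's name refers to Subread. The counting tool, its strand setting and its treatment of shared reads are therefore unknown, and overlapping or near-identical genes are uncertain. Per the labels' protocols, libraries were made with a SMARTer stranded low-input kit. There was 1 column that matched no sample label, and it was not used.

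The members, gene lists and tests were chosen with earlier results of these data known. Lists of named genes could not be used without symbols. Named genes were those of rank 1, 2 and 99 to 102, the members with the highest and lowest exosome level, and the 2 with the largest called change in each direction in OS-2 cells whose groups did not overlap, of which there were 2 higher and 0 lower.

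Tests used edgeR 4.0.16 in R 4.3.3 (quasi-likelihood F test, TMM scaling, filterByExpr with a minimum count of 10, robust dispersions) on all genes, with Benjamini-Hochberg adjustment at 0.05. Cells were fitted with 8 libraries, exosomes with 12 and exosomes against cells with 18. All 100 members passed each filter, which the floor of 50 CPM in cells made certain in the fits with cells. CPM used the total of each library, and log values a pseudocount of 1. The counting SD was computed from each gene's mean CPM and the library totals. Fits were first tested on simulated data holding 200 changed genes. The alternatives tried were upper quartile, RLE and total count scaling, no filter, DESeq2 1.42.0, limma voom 3.58.1, the replicate block and leaving out libraries.

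Replicate pairs differed by a chi-square per degree of freedom of at least 1.79, so none was taken as a copy. The difference of letter A from letter B correlated between lines of cells at 0.17 to 0.49 in all 6 line pairs. This passes the limit of 0.1 for treating letters as pairs, a pairing seen in the values alone and stated by no label. The main fits in cells did not use this pairing, and the block was run as an alternative.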

Additional observations from a re-analysis of the deposited data

How the results depend on the processing

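Members called over the 4 cell lines numbered 5, and 20 with DESeq2, 3 with limma voom, 8 with the replicate block, 0 to 5 when single libraries were left out, and 0 without the OS-2 line, with or without the block (edgeR, 4 and 5 members at an unadjusted p under 0.05). In OS-2 cells 18 were called, 14 to 22 with other scalings, filters, tools or the block, and 3 to 19 without single libraries. The block changed no other call in cells by over 1.5 times. For the other tools and for single libraries left out, shares over all genes are not given here. In OS-1 cells the count of 0 became 1 without OS-1 replicate A (0 to 1 over the libraries), and DESeq2 called 4 members in OSCA-78 and 3 in OSCA-8 cells. Against cells, 99 members were called in exosomes, 65 with RLE scaling and 87 to 100 without single libraries. Over exosome lines 58 were called, 3 with total counts, 25 to 63 without single libraries and 0 without the OS-2 line (8 at an unadjusted p under 0.05). In OS-2 exosomes 85 were called, 16 with total counts and 53 to 87 without single libraries, and the median log2 fold change of 1.32 became -0.30 with total counts. Exosome numbers did not pair libraries (correlations from -0.01 to 0.02), and with them as a block 75 members were called over lines.

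Of the 100 members, 1 was chosen again with TMM, 3 with TMM over the same eligible genes, 13 without the 7 dominant genes, 31 with a cell floor of 100 CPM (137 genes eligible), 34 with a ratio from 0.25 to 2, 66 without OS-1 exosomes, 35 without OS-2 exosomes, and 73 to 94 without single libraries. Other pseudocounts, a floor of 25 CPM and other measures of spread kept 68 to 100. The cause of these moves was not tested, except that a floor of 100 CPM and the lines left out leave fewer genes or samples. At this depth counting error alone would amount to 43.5% of the median member's variance, a share that the choice of low SDs favours, and the ranking at another depth was not tested. The alternatives of OS-2 exosomes, the TMM ranking over the same genes and the runs without the OS-2 line were chosen after seeing the data.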
